A study of Mus musculus with 1 sample.

Results

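The Nr4a receptors Nr4a1, Nr4a2 and Nr4a3, the Foxa factors Foxa1 and Foxa2, and the midbrain patterning factors Otx2, En1, En2, Lmx1a and Lmx1b were examined in ventral midbrain (VM) glia. These 10 genes were taken by gene symbol from the 23282 rows of the expression table, and each had 1 row. The culture was primary mixed glia from the VM of ICR(CD-1) outbred mice at postnatal day 5, grown with 10% fetal bovine serum, and the RNA-seq library was labelled as the control, which the study describes as treated with the vehicle DMSO. The study compared such glia with glia treated with an inhibitor of serum/glucocorticoid related kinase 1 (SGK1), and the treated glia were not analysed here. There was 1 library, so no difference between genes has a replicate check and no test between conditions was made.

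Nr4a receptors are orphan nuclear receptors that act as transcription factors without a known classical ligand, and they are induced rapidly by growth factors, cAMP, calcium and inflammatory signals. Nr4a2, also called Nurr1, is required for the dopamine phenotype of midbrain dopamine (mDA) neurons. Foxa1 and Foxa2 are forkhead pioneer factors of the floor plate, Otx2 sets forebrain and midbrain identity, En1 and En2 act in the midbrain and anterior hindbrain, and Lmx1a and Lmx1b specify mDA progenitors. The study started from Nurr1 and Foxa2 as upstream factors of SGK1 in glia, where both were introduced by forced expression. No forced expression is described for this library. The first question here is thus the level of the endogenous genes in control VM-glia, which does not measure what the study's forced expression did.

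The 3 Nr4a genes are shown first by their promoter sequence, because cAMP response elements (CRE) of immediate early genes lie close to the start site. Each window holds 250 bases before and 50 bases after the annotated start in the GRCm38.p6 build, taken from RefSeq and written 5′ to 3′ on the strand of the gene. Capitals mark the CRE core TGACG on either strand, which reads CGTCA on the opposite one.
Nr4a1 (chr15:101266596-101266895, plus strand): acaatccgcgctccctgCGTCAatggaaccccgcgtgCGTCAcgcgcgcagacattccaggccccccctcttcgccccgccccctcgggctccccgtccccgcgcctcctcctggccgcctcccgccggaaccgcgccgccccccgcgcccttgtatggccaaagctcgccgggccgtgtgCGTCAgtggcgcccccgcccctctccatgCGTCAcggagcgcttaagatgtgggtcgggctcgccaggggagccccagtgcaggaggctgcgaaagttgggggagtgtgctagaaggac
Nr4a2 (chr2:57123954-57124253, minus strand): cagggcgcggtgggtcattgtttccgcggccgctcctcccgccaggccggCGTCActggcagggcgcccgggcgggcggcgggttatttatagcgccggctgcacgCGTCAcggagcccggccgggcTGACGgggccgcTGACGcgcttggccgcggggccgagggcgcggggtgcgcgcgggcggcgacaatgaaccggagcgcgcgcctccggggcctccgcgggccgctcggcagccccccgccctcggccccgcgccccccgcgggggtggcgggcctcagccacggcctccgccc
Nr4a3 (chr4:48045055-48045354, plus strand): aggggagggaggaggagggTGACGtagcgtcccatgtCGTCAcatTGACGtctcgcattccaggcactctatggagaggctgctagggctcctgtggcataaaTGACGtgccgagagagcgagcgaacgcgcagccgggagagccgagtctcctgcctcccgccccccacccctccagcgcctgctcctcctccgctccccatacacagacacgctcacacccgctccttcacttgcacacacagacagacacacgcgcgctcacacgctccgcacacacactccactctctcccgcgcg

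Each of the 3 Nr4a windows held 4 CRE cores. Of all 32851 promoter windows, 20.8% held at least 1 core and 0.231% held 4 or more. The cores lay within 250 bases upstream of the start, and the one nearest to it was in Nr4a1 at 40 bases before the start. The windows were also rich in G and C, with 72.3% in Nr4a1, 81.7% in Nr4a2 and 64.7% in Nr4a3 against a median of 52.7% over all windows. The core contains the pair CG. The ratio of observed to expected CG was 0.913, 1.04 and 0.866 in these 3 windows, against a median of 0.384 over all windows. The shares over all windows were not matched for this. Windows were present for 9 of the 10 members, with several starts for Foxa2 and Otx2, which gave 14 windows. Outside the Nr4a genes, 1 core was found in 1 of the 3 Foxa2 windows, in 1 of the 4 Otx2 windows and in the Lmx1b window, and none in those of Foxa1, En1 and Lmx1a. The palindromic CRE TGACGTCA, which contains the core, was in 1.79% of all windows and in 0 of the 14. The Nr4a response element NBRE, AAAGGTCA, was in 1.51% of all windows, the CArG box of serum response factor in 1.63%, and each was in 0 of the 14. These matches describe letters in the windows and not binding.

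**Figure D1:**
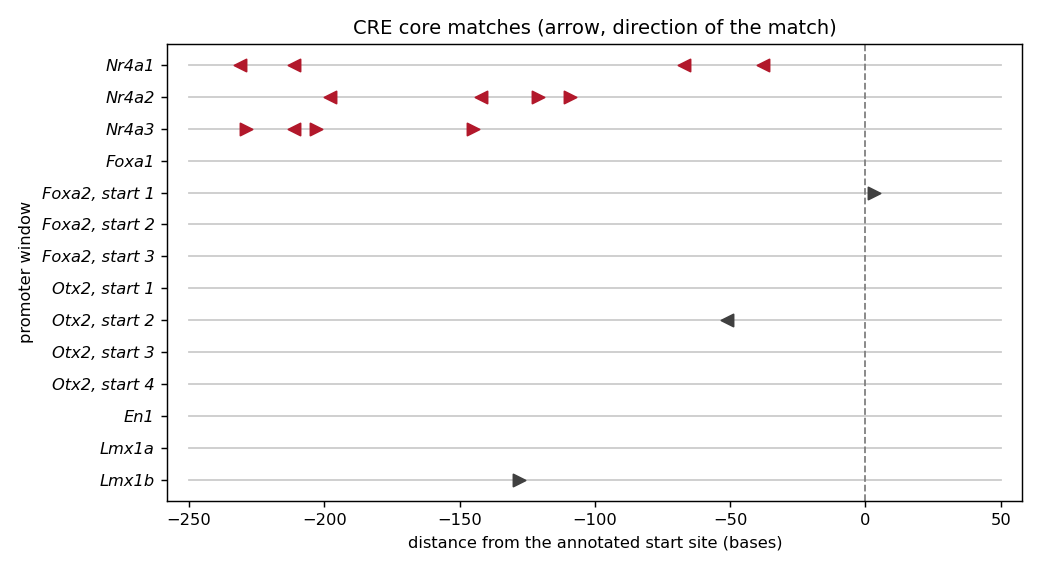
Positions of the CRE core in the 14 promoter windows of 9 members, with distance from the annotated start site in bases on the x axis and 1 line per window. Arrows give the direction of each match. The Nr4a1, Nr4a2 and Nr4a3 lines carry 4 arrows each, and no other line carries more than 1.

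All 10 members were detected, with detection called at a normalised read count of 10 or more, and 67.2% of all rows were called by the same rule. This share applies beside each count of detected genes below. The values ran from 20 for Foxa2 to 956 for Nr4a1, with a median of 105.5. The median was 119 over all rows and 469 over the 15648 detected rows, so the typical member was in the lower part of the detected range. At a minimum of 100, 6 of the 10 were called, beside 51.6% of all rows. The members called at 100 were Nr4a1, Nr4a3, En1, En2, Foxa1 and Otx2, with Otx2 exactly at 100 and Nr4a2 just outside at 99. The 10 genes summed to 2406, of which the Nr4a genes held 67.8%, the patterning factors 26.7% and the Foxa factors 5.44%. In RNA from a mixed culture, fewer cells of a type and less RNA per cell cannot be told apart.

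Because a longer mRNA gives more reads, the members were ordered by value per kb of exon, with the union of annotated exons as the length. Nr4a1 was first at 272 per kb. It was followed by En1 at 98.7, Nr4a3 at 96.4, En2 at 56.2, Foxa1 at 33.4, Nr4a2 at 24.4, Otx2 at 23.7, Lmx1a at 13.5, Foxa2 at 8.44 and Lmx1b at 7.99 per kb. Nr4a1 was 2.76 times the next gene, and by this length it was the only member above the median of detected protein-coding rows, 107 per kb. With the longest transcript and the mean coding length the next gene was Nr4a3, and Nr4a1 was 3.71 and 4.99 times its level. The neighbours En1 and Nr4a3 were 1.02 times apart, Nr4a2 and Otx2 1.03 times, and Foxa2 and Lmx1b 1.06 times. Without replicates no neighbours in this order can be said to differ.

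**Figure D2:**
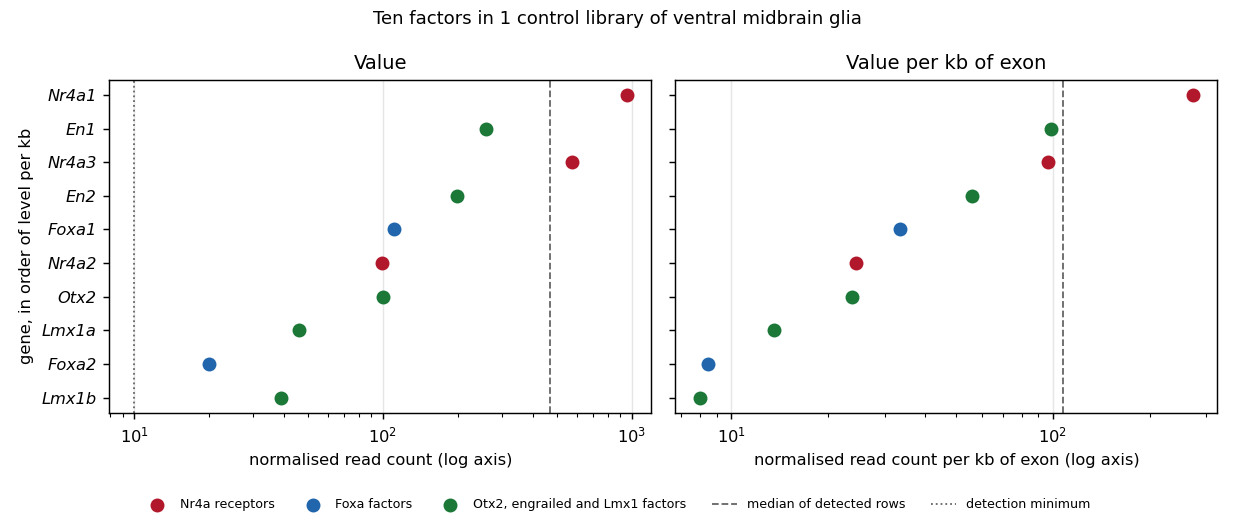
Normalised read count (left) and normalised read count per kb of exon (right) of the 10 members in the control library, both on log axes, with genes in the order of the right panel. Points are single values coloured by group, the dotted line is the detection minimum of 10, and the dashed lines are the medians of all detected rows (469, left) and of detected protein-coding rows (107 per kb, right). Nr4a1 is to the right of both medians, and Nr4a3 is to the right of the left one only.

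The receptors of the Nurr1 family differed widely in level. In the GENCODE annotation of GRCm38, Nr4a1 (ENSMUSG00000023034) lies on chromosome 15 from 101254269 to 101274795, Nr4a2 (ENSMUSG00000026826) on chromosome 2 from 57106830 to 57124003, and Nr4a3 (ENSMUSG00000028341) on chromosome 4 from 48045153 to 48086447. The Nr4a1 promoter window, from 101266596 to 101266895, lies inside the GENCODE span of Nr4a1. It is therefore not at the outermost GENCODE start of that gene, which has 4 annotated transcripts. Nr4a1, also called Nur77, is an early response gene of macrophages and many other cells, and its value was 956, above 66.9% of detected rows. Nr4a3, also called NOR1, was at 577, above 54.6%. Nr4a2 was at 99, above 23.1%, and ranked 12016 among all rows. Nurr1 itself was therefore the lowest of its family, with Nr4a1 11.2 times and Nr4a3 3.95 times its level per kb. With other definitions of length, Nr4a1 was between 13.5 and 16.9 times Nr4a2, so this order did not rest on the length chosen. On the scale of values per 1000000 of the sum over all rows, Nr4a1 was at 34.7, Nr4a3 at 20.9 and Nr4a2 at 3.59.

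Placed within all 48 nuclear receptor genes examined, of which 35 were detected, Nr4a1 ranked 5 by value per kb, Nr4a3 ranked 11 and Nr4a2 ranked 28. Detection was called in 67.2% of all rows. The genes above Nr4a1 were Nr1h2, which encodes the oxysterol receptor LXRβ (763 per kb), the thyroid hormone receptor gene Thra (511), the retinoic acid receptor gene Rara (479) and Rxra (427). The median of the 48 genes was 32.2 per kb, and Nr4a2 was below it at 24.4. Thra exons overlap those of Nr1d1 on the opposite strand, and the strand setting of the count was not stated. With the other lengths and without division by length, Nr4a1 ranked 6 under each, Nr4a2 ranked between 27 and 30, and Nr4a3 between 11 and 20. Of the 45 receptors outside the Nr4a family, 32 were detected, of which Nr1i3 was lowest at 10. Nr1i3 exons overlap another gene on the opposite strand. The bile acid receptor gene Nr1h4, Nr5a1, Nr5a2, Nr0b1 and Nr0b2 were listed at 0.

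**Figure D3:**
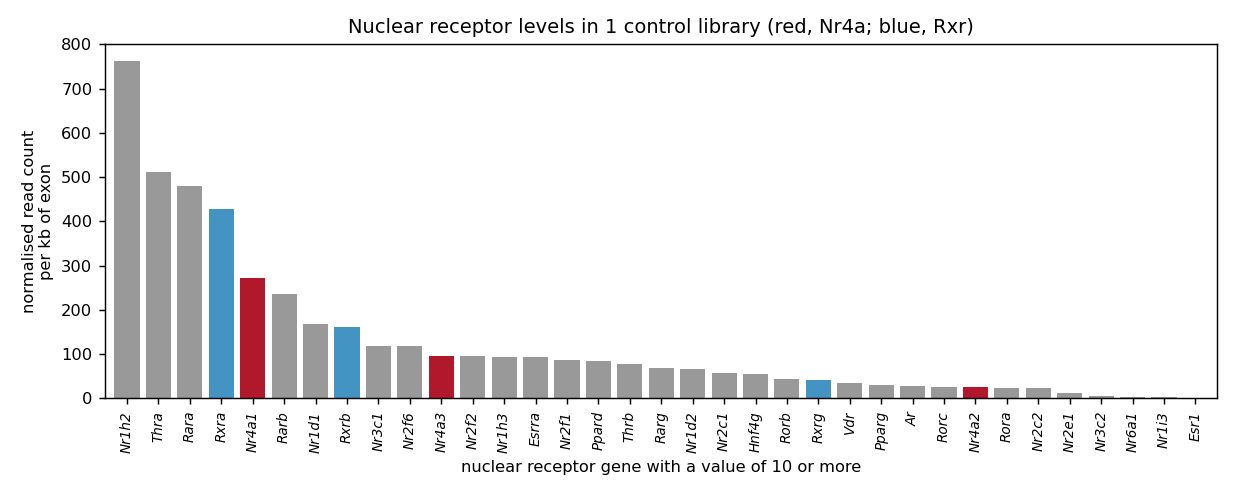
Normalised read count per kb of exon (y axis) of the 35 nuclear receptor genes with a value of 10 or more, 1 bar per gene. Nr4a1 is the fifth bar at 272 per kb, Nr4a3 is at 96.4 and Nr4a2 at 24.4, and the Rxr genes run from 40.9 to 427 per kb.

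Partners and corepressors of Nurr1 were present at higher levels per kb than Nurr1 itself, except Rcor2. Nurr1 and Nr4a1 form heterodimers with retinoid X receptors, and Nr4a3 does not. All 3 Rxr genes were detected, beside 67.2% of all rows, with Rxra at 2334, Rxrb at 637 and Rxrg at 94. Per kb these were 427, 160 and 40.9, each above the 24.4 of Nr4a2. In glia, Nurr1 is known to recruit the CoREST corepressor complex to inflammatory genes, and all 7 genes listed for this complex were detected, with a median of 2093. The histone deacetylase genes Hdac1 and Hdac2 were at 4348 and 3582, and the histone methyltransferase gene Ehmt2 at 4283. The demethylase gene Kdm1a was at 2093. The scaffold genes were lower, with Rcor3 at 558, Rcor1 at 327 and Rcor2 at 44. Rcor1, which encodes CoREST itself, was at 57.5 per kb and Rcor2 at 13.9, and exons of Rcor1 and Rcor3 overlap other annotated genes.

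Factors that act upstream of Nr4a genes were examined next. Nr4a1 is a classical target of CREB, which binds the CRE, and of MEF2 and serum response factor. All 12 genes of this list were detected, beside 67.2% of all rows, with a median of 1253.5. The highest values were those of Mef2a at 4132, Mef2c at 2830 and the coactivator gene Crebbp at 2338, and the lowest was Crem at 319. Exons of Mef2a and Crem overlap genes on the opposite strand. Creb1 was at 862 and the serum response factor gene Srf at 1448.

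Nr4a1 was compared with a list of other immediate early genes and members of their families, whose induction was not measured here. All 16 were detected, beside 67.2% of all rows, with a median of 1047 and a median of 438 per kb. Jun was highest at 5289, followed by Egr1 at 3917 and Junb at 3787, and Egr2 was lowest at 289. Exons of Jun and Junb overlap genes on the opposite strand. By exon union, Nr4a1 at 272 per kb was below the median of this list, and Egr1 was 3.21 times its level. With the longest transcript Nr4a1 was at 374 per kb, and with the mean coding length at 534. The list median was not computed with these lengths. Egr1 was 2.33 times Nr4a1 with the longest transcript as length and 1.95 times with the mean coding length.

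The forkhead factor Foxa2, which the study paired with Nurr1, had the lowest value of the 10 members. Foxa2 (ENSMUSG00000037025) lies on chromosome 2 from 148042877 to 148046969 and Foxa1 (ENSMUSG00000035451) on chromosome 12 from 57540628 to 57546916. Foxa2 was at 20, or 0.725 per 1000000 of the sum, above 5.96% of detected rows. Foxa1, which overlaps with Foxa2 in function in mDA progenitors, was at 111, above 24.6% of detected rows. Foxa1 was 3.95 times Foxa2 per kb, and between 2.94 and 3.70 times with the other lengths. The third member of the family, Foxa3, was at 11. The rows of both Foxa members were free of annotated exon overlaps.

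The engrailed genes were the highest of the patterning factors by deposited value. En1 lies on chromosome 1 from 120602418 to 120607992, En2 on chromosome 5 from 28165694 to 28172166 and Otx2 on chromosome 14 from 48657677 to 48673819. En1, which maintains mDA neurons, was at 259, above 38.0% of detected rows, and En2 was at 199, above 33.6%. En1 was 1.76 times En2 per kb, and each has a single annotated transcript. Otx2 was at 100, above 23.2%. It has 11 annotated transcripts, and its length changed its place: Otx2 was below En2 per kb of exon union, with En2 at 2.37 times its level, and above it per mean coding transcript length, with En2 at 0.822 times. The paralog Otx1 was at 161, and Otx2 was 0.798 times Otx1 per kb. This direction flipped with the longest transcript as length, where Otx2 was 1.26 times Otx1.

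The LIM-homeodomain genes Lmx1a and Lmx1b were at 46 and 39, above 14.2% and 12.4% of detected rows. Lmx1a lies on chromosome 1 from 167689237 to 167848741 and Lmx1b on chromosome 2 from 33560965 to 33640511. Lmx1a was 1.69 times Lmx1b per kb of exon union, but 1.12 times with the mean coding transcript length. Both were far below Lhx5, a LIM-homeodomain gene of the developing forebrain and hypothalamus, which was at 2244 and 61.6 times Lmx1a per kb. Lhx5 exons overlap Gm27199 on the opposite strand. In the list of 12 Otx and LIM-homeodomain relatives, 7 were detected, beside 67.2% of all rows. The next highest after Lhx5 were Lhx9 at 237 and Lhx2 at 200. Lhx4 at 11 was the lowest detected relative, and Lhx3 was listed at 0.

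**Figure D4:**
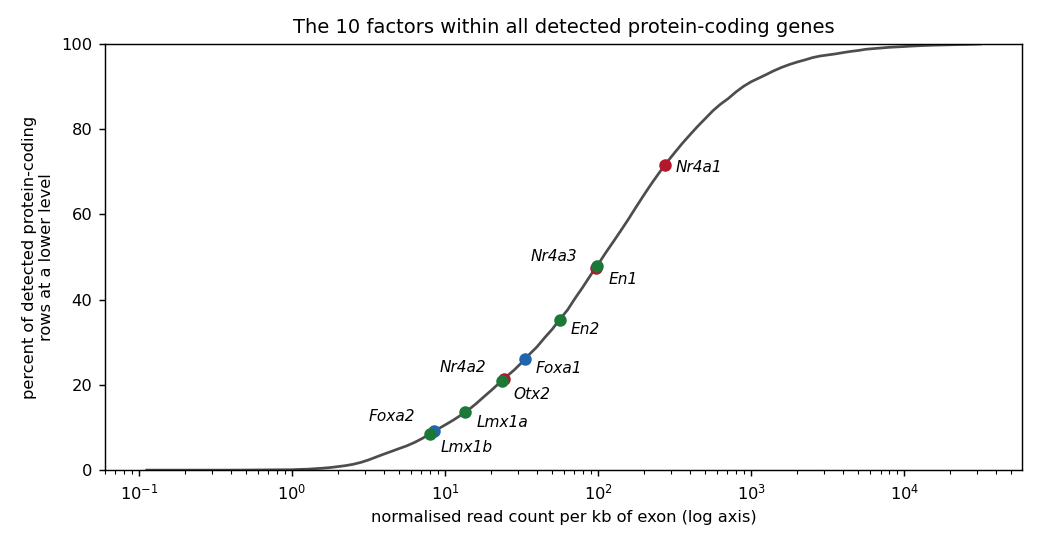
Percent of detected protein-coding rows at a lower level (y axis) against normalised read count per kb of exon (x axis, log scale), with the curve of all detected protein-coding rows and the 10 members as points. Nr4a1 is above 71.5% of these rows, En1 and Nr4a3 above 47.9% and 47.3%, and Lmx1b, the lowest, above 8.54%.

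Low values can come from reads of similar genes, so sequence shared between members and other annotated transcripts was measured. No stretch of 50 bases was shared between any 2 members. For Nr4a1, Nr4a2, Foxa1, Foxa2, En1 and En2, 0 stretches of 50 bases occurred in a transcript of any other gene. Lmx1a shared 2 of 3343 stretches, Nr4a3 shared 9 of 5986 and Lmx1b shared 19 of 4876. Otx2 shared 120 of 4357 stretches (2.75%), with Otx2os1 and Gm49154, whose exons overlap it by 154 and 168 bases. Otx2os1, on the opposite strand, was at 1. These were the only exon overlaps of the 10 members. Between coding sequences of the Nr4a genes, the longest identical runs are shown because they give the longest exact match of a pair. A read aligned with mismatches, or one from untranslated exon sequence, is not covered by these runs.
Nr4a2 (chr2:57110704-57110730, minus strand) and Nr4a3 (chr4:48055966-48055992, plus strand), exon 4 of each transcript compared: gcaaataaaaactgcccagtggacaag
Nr4a1 (chr15:101270946-101270969, plus strand) and Nr4a3 (chr4:48052178-48052201, plus strand), exons 2 and 3: gagggctgcaagggcttcttcaag
The runs shown were 27 and 24 bases, and Nr4a1 and Nr4a2 shared 14 bases. En1 and En2 shared at most 17 bases and Lmx1a and Lmx1b at most 21.

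Genes close to the members were examined for signal spread along the chromosome. Within 50 kb, Nr4a1 had 8 annotated neighbours, of which 6 had a row. The nearest, the autophagy gene Atg101, was 9477 bases away and at 528. Of the genes within 10 kb of other members, BB557941 next to Nr4a2 was at 1. C130021I20Rik starts 682 bases from Lmx1b on the opposite strand, and its value was 43 beside 39 for Lmx1b, with 0 bases of exon overlap. The genes 9030622O22Rik and Gm27420 near Foxa2 and Gm49151 and Gm23469 near Otx2 had no row under these symbols, nor did Gm43610 and Gm38011, which lie within En2 and Lmx1b.

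The signals that position the midbrain in the embryo were then examined. Sonic hedgehog, encoded by Shh, induces the floor plate and Foxa2. All 9 genes of the Shh pathway list were detected, beside 67.2% of all rows, with a median of 193. The receptor component gene Smo was at 2115, the inhibitor gene Sufu at 432 and Shh at 320. Gli1, a target that reports pathway activity, was at 108. Shh and Gli1 exons overlap genes on the opposite strand. For the isthmus, the organiser between midbrain and hindbrain that drives engrailed expression, 7 of 11 genes were detected, with a median of 30. This was 63.6% of the list, beside the 67.2% of all rows. The feedback inhibitor gene Spry2 was at 305, Gbx2 at 223 and Spry1 at 173. Gbx2 and Spry1 exons overlap genes on the opposite strand. Pax2 was the lowest detected gene at 28. The organiser genes Wnt1 and Fgf8 were at 2 and 1 and the ligand gene Fgf17 at 3, all under the detection minimum, while the ligand gene Fgf18 was detected at 108. Pax5 was listed at 0.

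Of 11 floor plate and progenitor genes, 9 were detected, with a median of 47. Sox2, which glia also express, was at 1268, Msx2 at 246 and Msx1, which acts with Lmx1a, at 182. Foxa3 and Nkx6-1 were lowest at 11, and the floor plate gene Corin and the neurogenic gene Neurog2 were listed at 0. Of 14 genes of mDA neurons and Nurr1 targets, 8 were detected (57.1%, beside 67.2% of all rows), with a median of 19.5. Aldh1a1 was at 907, the cofactor synthesis gene Gch1 at 460 and Dlk1 at 309, all of which have functions outside mDA neurons, and the vesicular monoamine transporter gene Slc18a2 was the lowest detected gene at 16. Slc18a2 exons overlap Gm29261 on the opposite strand. The other 6 genes were under 10, among them tyrosine hydroxylase Th at 3, the dopamine transporter Slc6a3 at 7, the decarboxylase Ddc at 8 and Drd2 at 3. Klhl1 was also at 3, and Pitx3, the mDA neuron factor, was listed at 0.

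Cofactors of the homeodomain members were all detected, 12 of 12 beside 67.2% of all rows, with a median value of 863. Their median per kb was 109.9, beside 107 per kb for detected protein-coding rows. The Groucho-related genes Aes and Tle3, whose family works with engrailed, were at 17047 and 3478. Ldb1, which binds LIM domains, was at 3278, and its relative Ldb2 was lowest at 11. Ldb1 exons overlap Pprc1 on the opposite strand.

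Regional identity was described with genes of the brain regions on both sides. For the forebrain list, 9 of 12 genes were detected (75%, beside 67.2% of all rows), with a median of 80. Nkx2-1, a factor of the hypothalamus and ventral forebrain, had a value of 7164, and was 25.5 times En1, the highest patterning factor, per kb. With other definitions of length it was between 25.8 and 28.7 times En1. This value alone was above the sum of the 10 members, 2406. Six3, of the anterior forebrain and hypothalamus, was at 1302. Emx2 was the lowest detected forebrain gene at 49, and the cortical gene Emx1 was listed at 0. Nkx2-1 had no annotated exon overlap, while Six3 and Emx2 did. Of 10 other midbrain genes, 8 were detected, with a median of 52.5, Meis2 at 588, Pax3 at 366 and Gata3 at 168. Gata3 exons overlap genes on both strands. Pou4f1 and Tal2 were lowest at 17, and Sox14 was listed at 0. Of 16 hindbrain genes, 8 were detected, with a median of 10. Egr2 was at 289 and Gbx2 at 223, and Egr2 is also an immediate early gene. Among Hox genes, Hoxb4 was highest at 84 and Hoxb3 was the lowest detected at 11. Gbx2 and Hoxb3 exons overlap genes on the opposite strand. Hoxd3, Hoxc4 and Hoxc5 were listed at 0.

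**Figure D5:**
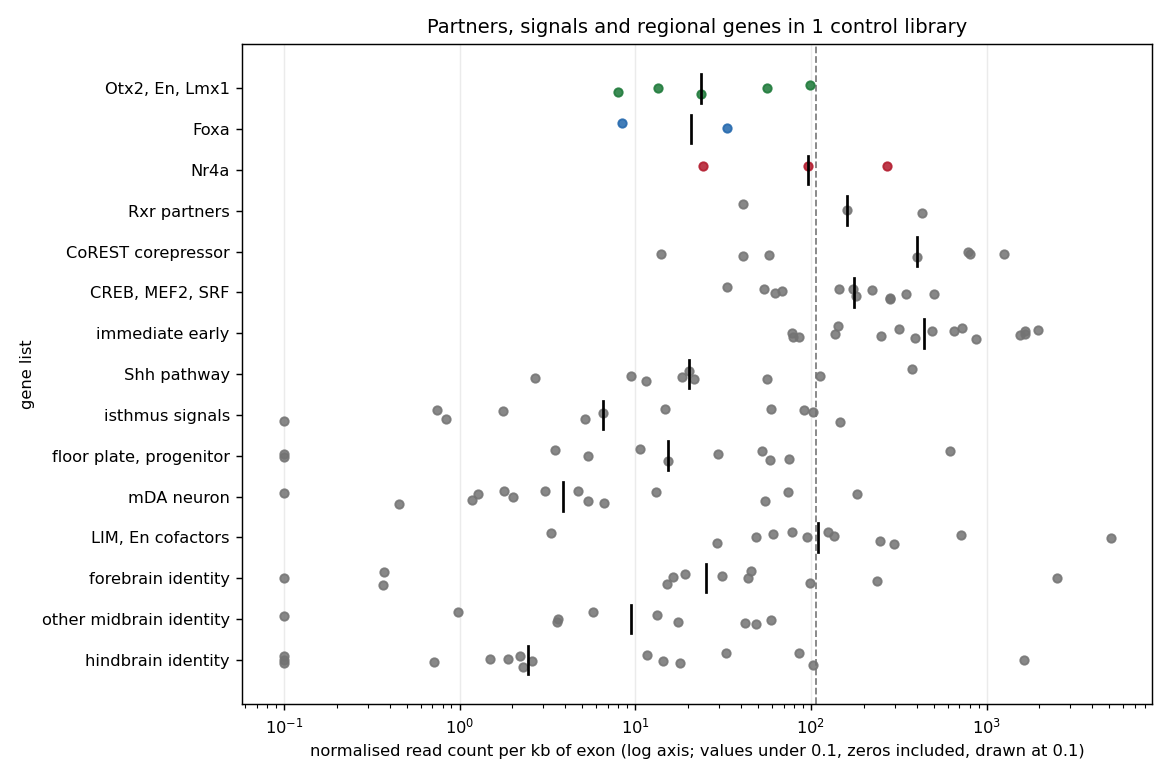
Normalised read count per kb of exon (x axis, log scale, with zeros drawn at 0.1) of the members and of 12 other gene lists, 1 point per gene, with black bars at list medians and a dashed line at the median of detected protein-coding rows (107 per kb). The medians of the Rxr, CoREST, CREB and immediate early lists lie to the right of the Nr4a median of 96.4 per kb, and 1 forebrain point, Nkx2-1, lies at 2521 per kb.

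The sources of these RNAs were described with cell type markers. Astrocyte markers were detected for 9 of 10 genes (median 2966.5, Gfap at 17222, Gjb6 at 4). The same rule called 67.2% of all rows. Microglia markers were detected for 10 of 10 (median 8180.5) and mesenchymal markers for 8 of 8 (median 8184.5). These medians are of different genes and were not divided by length, so they do not give shares of cell types. By staining, the study describes such cultures as mostly astrocytes, with fewer microglia. For oligodendrocyte lineage 10 of 10 were detected (median 1023), for ependymal cells 6 of 6 (median 706), for neurons 9 of 11 (median 86) and for endothelial cells 5 of 7 (median 43). The highest neuronal markers were Stmn2 at 3802, Map2 at 868 and Nefm at 508. Gad1 was the lowest detected at 13, and the vesicular transporter gene Slc17a6 was listed at 0. Stmn2 was thus far above the neuronal median of 86. Exons of Map2 and Nefm overlap genes on the opposite strand. Which of these cells gave the RNA of each member was not tested.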

How the data were processed

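RNA-seq was measured in 1 control library of VM-glia. According to the study's methods, reads were trimmed at quality 20, mapped to GRCm38/mm10 with STAR and counted on exons of RefSeq Release 105 genes with HTSeq-count. The methods add that FPKM, a value scaled by exon length, was calculated. Values per kb here take the deposited values as not already scaled by length, which was not tested. The submitters' processing notes name TopHat and edgeR. The deposited values are whole numbers that the authors call normalised read counts, and they were handled as a score on the count scale, since the normalisation, the strand setting and the read number are not given in the sources used here. Their sum was 27569507, and no interval or floor is therefore given. Rows were matched by symbol or synonym to GENCODE M21 (GRCm38) for 22899 of 23282 rows (98.4%), which is not the annotation counted on. Ranks give the percent of rows with a lower value. Exon lengths, shared stretches of 50 bases and motifs were computed with Python 3.11.15, numpy 2.4.6 and pandas 2.3.3, and the functions were tested on simulated data. Promoter sequences came from RefSeq (GRCm38.p6), and none was printed for En2. The members and lists were chosen with earlier results of these data known. Named genes were the members, all genes of lists of up to 5, the 3 highest, the lowest detected and those at 0 of longer lists, and neighbours within 10 kb. Some selected genes and 1 sequence are not reported here. Kdm1a, Rcor1, Rcor3, Rara, Otx1, Creb1, Srf, Gli1, Wnt1, Fgf8, Fgf17, Fgf18, Th, Slc6a3, Ddc, Drd2, Klhl1, Hoxb4 and Gjb6 fall outside this rule and were named with their values in view. Alternatives were other minima, lengths, totals and pools. For values with no replicate error, a change by more than 1.5 times was taken as a move.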

Additional observations from a re-analysis of the deposited data

How the results depend on the processing

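All 10 members were detected at a minimum of 10, and therefore also at 1 and 3, since the lowest value was 20. At a minimum of 100, 6 were detected, which follows from the stricter minimum. Of the 45 pairs of members, 42 kept their order per kb with the longest transcript, 40 with the mean coding transcript length and 42 without division by length. The partner, pathway, regional, immediate early and other nuclear receptor lists held 181 genes. Of these, 139 were detected at 10, 166 at 1 and 100 at 100. Of all rows, 67.2% were called at 10 and 51.6% at 100. Levels per 1000000 moved by less than 1.5 times without Rn45s or the 10 highest rows in 20 of 20 checks. Each of these settings changes only the total, so it moved every member by the same factor. These checks therefore say nothing about single members. Percentiles moved by more in 9 of 20 checks, 8 of them against all rows, a pool that contains the undetected rows. The ranks among nuclear receptors were added after the data were seen. No paired analysis was possible because there was 1 library. The lack of a replicate and the unknown normalisation limit each value to this library.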

Other observations

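The forkhead family was ranked after the values were seen. Of 44 forkhead genes with a row, 31 were detected, beside 67.2% of all rows. Of the 44, 8 were listed at 0, and the median was 12.9 per kb. Foxj1, a factor of motile cilia, was highest at 516 per kb of exon union, followed by Foxj2 at 231 and Foxk2 at 201. With the mean coding transcript length, Foxp1 ranked 1, Foxj1 ranked 2, Foxj2 ranked 4 and Foxk2 ranked 7. Foxa1 ranked 19 at 33.4 per kb and Foxa2 ranked 26 at 8.44 per kb. Of the 12 LIM-homeodomain genes with a row, 8 were detected, and Lmx1a and Lmx1b ranked 5 and 6 per kb under each of the 3 lengths and by value. Lhx5, Lhx2, Lhx6 and Lhx9 ranked above them per kb of exon union.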
